A study of Homo sapiens with 4 samples.

Results

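Chemokine receptors are membrane proteins coupled to G proteins that steer lymphocytes along gradients of small secreted proteins, the chemokines. In a germinal centre, CXCR4 holds B cells in the dark zone and CXCR5 draws them into the follicle and the light zone, while CCR7 leads lymphocytes to the T-cell zone of lymphoid tissue. This account covers 7 such genes of B cells: CCR6, CCR7, CCR10, CXCR3, CXCR4, CXCR5 and CCRL2. They were measured by 11 probe sets, out of 54613 probe sets on the array, namely every probe set whose platform annotation gave 1 of these symbols alone.

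The samples were 4 Affymetrix HG-U133 arrays of Raji cells, an established Burkitt lymphoma line that grows as malignant B cells carrying Epstein-Barr virus. In 1 clone, DLEU1, a long non-coding RNA gene, had been downregulated with TALENs, designer nucleases that cut a chosen DNA site, and the other was a wild-type control clone. Each clone was hybridised to 2 arrays. A group is thus a single clone, nothing in the labels says that the duplicates were separate cultures, and the p-values measure the spread between these arrays only. All 4 samples share the line and the serum-containing medium, and the labels do not give the TALEN target site.

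Arrays give no read depth, and their number limits the precision. The control arrays had 2% trimmed means of 163 and 131, the arrays of the downregulated clone had 172 and 197, so the arrays were quantile-normalised before testing and the results as deposited are given beside them. DLEU1 itself read 1363.4 and 1023.8 in the control clone, against 523.7 and 616.9 in the downregulated clone as deposited, and its log2 change after normalisation was -1.38 ± 0.07 (SE, limma adjusted p = 2.92e-06). All 7 B-cell markers with a probe set (of 8 listed) had mean intensities above 100, with summed intensities of 18794 and 18795 on the control arrays and of 15533 and 15670 on the arrays of the downregulated clone. Each listed marker of T cells, myeloid cells, natural killer cells and epithelial cells averaged under 100. COL1A1 was the fibroblast marker that did not, and no marker was at 0 on all arrays. The summed T-cell markers lay between 64.4 and 67.3 on the control arrays and between 99 and 103 on the others. The summed natural killer cell markers went the other way, from 36.2 to 41.2 on the control arrays and from 17.6 to 27 on the others, as did the fibroblast markers, from 163 to 225 and from 93.8 to 150. The myeloid and epithelial sums overlapped between the clones. The part of these markers in the results was not tested.

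Of the 7 receptor genes, CXCR4 and CXCR5 were lower in the DLEU1-downregulated clone and CCR7 was slightly higher. CCR6 passed the filter on dim probe sets but not the test, and the probe sets of CXCR3, CCR10 and CCRL2 were too dim to be tested. In terms of probe sets, 7 of 11 were tested, 5 of them fell and 1 rose. Over all 32768 tested probe sets, 16.7% fell and 17.1% rose (limma, Benjamini-Hochberg adjusted p under 0.05). After normalisation all 5 lowered probe sets, which belong to 2 genes, were at least 2-fold lower by their log2 change. Of all 32768 tested probe sets 3.14% were, namely 1028 of the 5485 that fell. On the intensities as deposited the same 5 fell and the same 1 rose, against 5.11% and 17.2% of all tested probe sets. By the same measure only the CXCR5 probe set 206126_at was 2-fold lower as deposited (log2 change -1.38), while the others changed by -0.99 to -0.68. The median log2 change of all tested probe sets was 0.01 after normalisation and 0.16 as deposited, so a change of a given size lies further from the middle on 1 scale than on the other. An exact two-sided permutation test over 4 arrays has 6 assignments and cannot go below p = 0.333. That value was obtained for CXCR4, CXCR5, CCR7, CCR6 and CXCR3 alike.

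**Figure D1:**
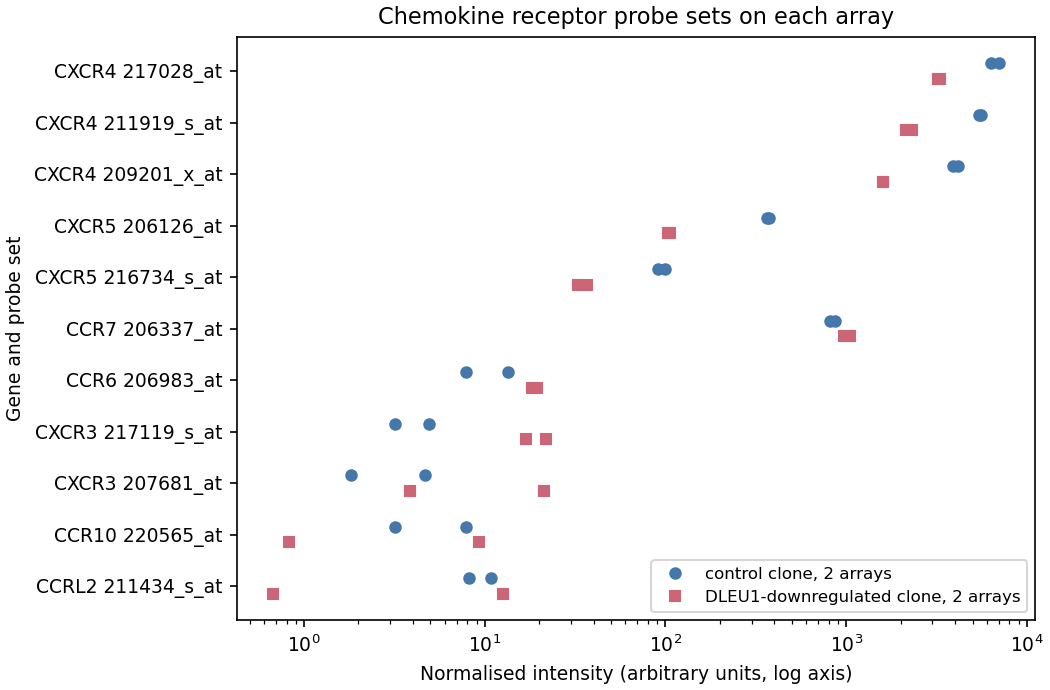
Normalised intensity (arbitrary units, log axis) of the 11 probe sets, with a circle for each control array and a square for each array of the DLEU1-downregulated clone. The groups lie apart for CXCR4, CXCR5 and CCR7, and also for CCR6 and the CXCR3 probe set 217119_s_at. The probe sets of CCR6, CXCR3, CCR10 and CCRL2 all lie below 22 on every array.

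CXCR4, the receptor of CXCL12, was measured by 3 probe sets that all fell. The brightest, 217028_at, read 6662.4 and 5227.5 in the control clone, against 3495.2 and 3881.6 in the downregulated clone as deposited. Both arrays of the downregulated clone were below both control arrays. After normalisation the means were 6663 ± 491 and 3277.4 ± 56.2 (SD, n = 2 arrays each), which is 2.03-fold lower in the downregulated clone. On the log2 scale CXCR4 changed by -1.02 ± 0.05 (SE, limma adjusted p = 3.71e-06), and less so as deposited (-0.68, adjusted p = 0.00164) and after median centring (-0.63). The probe set 211919_s_at read 5209.6 and 4500.6 against 2253.2 and 2789.2 as deposited, and its log2 change after normalisation was -1.29 ± 0.05 (SE, limma adjusted p = 1.06e-06). The probe set 209201_x_at, whose suffix marks probes that can bind other transcripts, read 3679.9 and 3266 against 1659.8 and 1928.1 and had a log2 change of -1.32 ± 0.05 (SE). The 95% interval of the change ran from -1.14 to -0.90 for the brightest probe set and from -1.41 to -1.18 for 211919_s_at, so the size depended on the probe set and the direction did not. The 3 probe sets measure 1 gene and are not replicates of the clone. In a bulk RNA sample, fewer cells that express a gene and less RNA per cell cannot be told apart.

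CXCR5, the receptor of CXCL13, had the largest log2 change among the 4 tested receptor genes, both after normalisation and as deposited. Its brighter probe set, 206126_at, read 356.9 and 292.1 in the control clone, against 109.4 and 118.9 in the downregulated clone as deposited. The groups were far apart, with the higher array of the downregulated clone below the lower control array. The normalised means were 369 ± 7.98 and 105 ± 2.51 (SD, n = 2 arrays each), 3.52-fold apart. On the log2 scale CXCR5 changed by -1.67 ± 0.11 (SE, limma adjusted p = 8.59e-06), and by -1.38 as deposited (adjusted p = 3.93e-06). The dimmer probe set, 216734_s_at, read 92.4 and 80.5 against 35.7 and 35.1, and again the groups did not overlap. Its log2 change of -1.13 ± 0.17 (SE, limma adjusted p = 9.98e-04) depends on the constant added before taking logs. It was -1.43 with a constant of 1 and -0.69 with a constant of 64. The changes of CXCR4 and CXCR5 passed the threshold in every alternative fit, also without any single array.

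The promoters of CXCR4 and CXCR5 are shown because these members fell together. They are the 250 bases before a transcription start in RefSeq (GRCh38.p14), written 5′ to 3′ on the gene's strand. The CXCR4 stretch, chr2:136118150-136118399 on the minus strand, lies before the outermost start of the gene. The CXCR5 stretch, chr11:118893142-118893391 on the plus strand, lies before a start within the span of the gene, and no other CXCR5 promoter was used here. Capitals mark the TATA box motif TATAAA or its reverse complement TTTATA, which overlap in CXCR4.

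CXCR4: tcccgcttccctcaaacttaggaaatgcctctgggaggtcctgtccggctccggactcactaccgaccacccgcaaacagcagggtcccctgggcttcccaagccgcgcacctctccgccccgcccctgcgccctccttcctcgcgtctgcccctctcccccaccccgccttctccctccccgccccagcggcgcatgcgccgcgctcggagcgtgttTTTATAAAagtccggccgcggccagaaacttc
CXCR5: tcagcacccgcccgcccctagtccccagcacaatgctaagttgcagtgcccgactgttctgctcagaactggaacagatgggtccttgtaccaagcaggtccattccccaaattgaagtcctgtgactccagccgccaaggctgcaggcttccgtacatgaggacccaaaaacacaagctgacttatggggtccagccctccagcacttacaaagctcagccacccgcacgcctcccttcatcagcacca

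The CXCR4 stretch was 68% G and C and had TATAAA beginning 30 bases before the start, whereas the CXCR5 stretch was 57.2% G and C and held neither form of the motif. The other 2 CXCR4 stretches, before starts further into the gene, held neither form either, and 1 of 2 CCRL2 stretches had TTTATA beginning 28 bases before its start. Of 35116 RefSeq promoters of this length, 10.7% held TATAAA or TTTATA. The search for this motif was added after the sequences were seen. The NF-kB consensus, searched by name on both strands and found in 9.96% of promoters, was in none of the stretches of CXCR4, CXCR5, CCR6, CXCR3 and CCRL2. The octamer ATTTGCAT, bound by the factors OCT1 and OCT2, or its reverse complement ATGCAAAT was in 1.63% of promoters. Among the receptors it was found in 1 of 3 CCR6 stretches, 84 bases before that start, and in no stretch of CXCR4, CXCR5, CXCR3 or CCRL2. These matches describe the letters in these windows and nothing more. The table gave no promoter for CCR7 or CCR10.

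CCR7, the receptor of CCL19 and CCL21, was first found as a gene induced by Epstein-Barr virus in B cells. Its probe set, 206337_at, read 794.1 and 673.2 in the control clone, against 1024.4 and 1256.9 in the downregulated clone as deposited. Both arrays of the downregulated clone were higher, and the groups did not overlap. Normalised means were 844 ± 39.6 and 1012.4 ± 49.3 (SD, n = 2 arrays each), 1.20-fold apart. The size of the rise depended on the scaling. It was 0.26 ± 0.07 on the log2 scale (SE, limma adjusted p = 0.0193, 95% interval 0.10 to 0.41), 0.62 as deposited (adjusted p = 0.0430), 0.67 with the array medians aligned and 0.30 with the trimmed means aligned. The call was lost without control replicate 1 (log2 change 0.21, limma adjusted p = 0.0764), without replicate 2 of the downregulated clone (0.21, adjusted p = 0.148) and in a fit without an intensity trend (0.26, adjusted p = 0.144).

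CCR6, the receptor of CCL20, read 9.5 and 12.7 in the control clone, against 17.2 and 19.4 in the downregulated clone as deposited. The array medians were 22.6 and 18.4 in the control clone and 18.7 and 20 in the downregulated clone, so all 4 readings lay under the median of their array, the control readings further under it. The groups did not overlap, but no detection calls were used here, so it is not known whether these readings lay above background. The log2 change was 0.39 ± 0.25 (SE, limma adjusted p = 0.265). With the added constant of 16, its 95% interval from -0.17 to 0.96 allows both no change and a rise of nearly 1 on the log2 scale. The normalised means of 10.7 and 18.9 lay near that constant, so the size depends on it. The change was 0.81 with a constant of 1 and 0.15 with 64.

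CXCR3, the receptor of CXCL9, CXCL10 and CXCL11, had 2 probe sets, both below the filter. The brighter, 217119_s_at, read 6.1 and 3.2 in the control clone, against 15.9 and 22.3 in the downregulated clone as deposited. The other, 207681_at, read 5.8 and 1.8 against 3.5 and 21.7, so that 1 array of the downregulated clone was high and the other lay within the control range. Without the filter, 217119_s_at had a log2 change of 0.82 and a limma adjusted p = 0.0462, and 207681_at had 0.51 with adjusted p = 0.364. All these readings were under or close to the array medians, and the size is set largely by the added constant of 16: the change of 217119_s_at was 2.03 with a constant of 1 and 0.29 with 64.

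CCR10, the receptor of CCL27 and CCL28 that guides antibody-secreting cells to mucosa and skin, read 9.5 and 3.2 on the control arrays against 8.6 and 0.7. CCRL2, an atypical receptor that binds chemerin without G protein signalling, read 9.8 and 10.4 against 11.7 and 0.6. In both genes the groups overlapped, and the log2 changes were -0.05 and -0.22. Without replicate 2 of the downregulated clone they were 0.24 and 0.16. Over the 11 probe sets, the normalised intensities of the groups did not overlap for 8, as was the case for 54.3% of all probe sets.

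**Figure D2:**
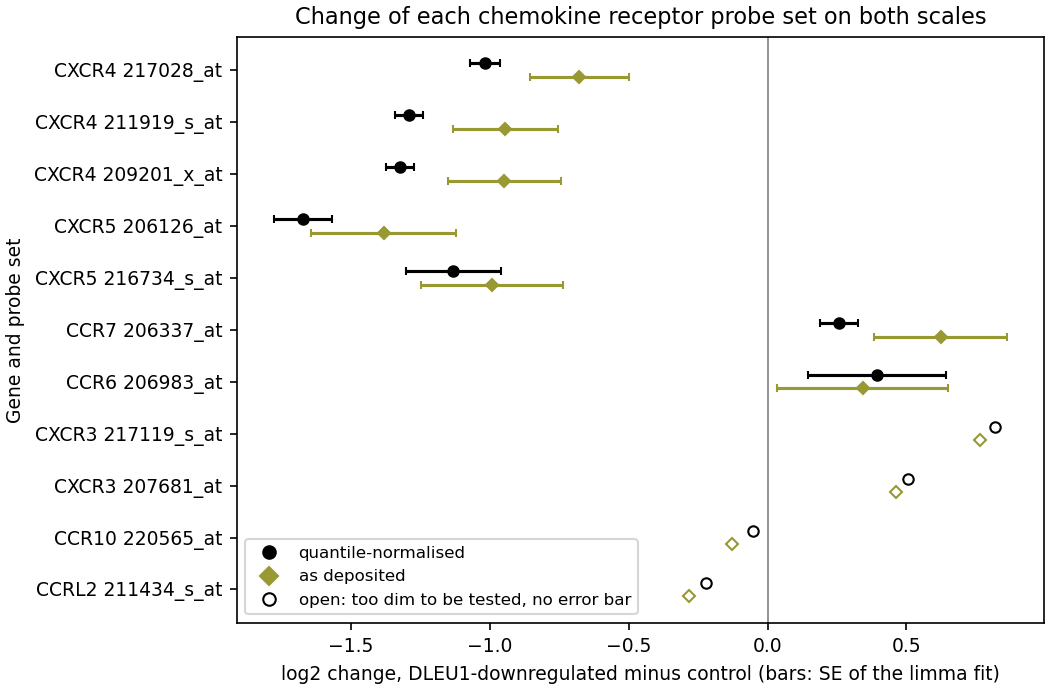
Log2 change (DLEU1-downregulated minus control) of the 11 probe sets after quantile normalisation (black circles) and as deposited (diamonds), with the SE of the limma fit as bars and open symbols for probe sets too dim to be tested. The 5 probe sets of CXCR4 and CXCR5 lie between -1.67 and -1.02 after normalisation, and CCR7 moves from 0.26 to 0.62 between the scales.

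Most ligands of these receptors fell under the filter on dim probe sets. Of 12 listed, 5 were tested, 2 rose and 3 did not pass, both after normalisation and as deposited. Over all 13292 genes tested after normalisation, 20.6% rose and 20.6% fell. The list's median log2 change was -0.06, and -0.01 over all tested genes. CXCL10, an interferon-induced ligand of CXCR3, read 1232.7 and 1044 in the control clone, against 1889.8 and 2129 in the downregulated clone as deposited (normalised log2 change 0.46 ± 0.06 SE, limma adjusted p = 2.84e-04). CXCL9, another CXCR3 ligand, read 51 and 56.4 against 113.9 and 126 (0.77 ± 0.18 SE, adjusted p = 0.00945). Leaving out replicate 1 or 2 of the downregulated clone ended the call for CXCL9 (limma adjusted p = 0.0763 and 0.0605). CXCL11, also a CXCR3 ligand, was lower, at 21.6 and 17.7 against 8 and 12.4, and did not pass (log2 change -0.39, limma adjusted p = 0.262). MIF, a cytokine that also binds CXCR4, read 6605.7 and 5909.4 against 7127.2 and 7979.8 and did not pass (log2 change -0.06, adjusted p = 0.284), with a sign that turned to 0.27 as deposited. CXCL12, CXCL13, CCL19, CCL20, CCL21, CCL27 and RARRES2, the gene of chemerin, were too dim to be tested.

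Among 16 other chemokine receptors, 14 had a probe set and 4 were tested, of which 1 fell and 3 did not pass. Of all tested genes, 20.6% fell and 20.6% rose. ACKR4, a scavenger of the CCR7 ligands, read 266.2 and 186.7 in the control clone, against 152.9 and 166.1 in the downregulated clone and fell (log2 change -0.73 ± 0.12 SE, limma adjusted p = 0.00131). As deposited the call was lost (-0.45, adjusted p = 0.215), and after median centring too (-0.40, adjusted p = 0.0573). ACKR3, a scavenger of CXCL12, read 924.7 and 701.4 against 1010.2 and 1320.4 and did not pass (0.14, adjusted p = 0.203). The list had a median log2 change of -0.30, with ACKR2 and CCR1 as its other tested genes.

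Chemokine receptors act through inhibitory G proteins, are silenced by receptor kinases and arrestins, and are limited by RGS proteins, which speed up the shutdown of the G protein. Of 27 genes listed for these steps, 23 were tested, 4 rose and 8 fell (5 and 5 as deposited, where 20.3% of all tested genes rose and 5.74% fell). After normalisation 20.6% of all tested genes rose and 20.6% fell. The list had a median log2 change of 0.06. The smallest p-values belonged to 4 genes that fell. GNB4, a G-protein beta subunit, read 685.5 and 504.8 in the control clone, against 11.9 and 9.3 in the downregulated clone (normalised log2 change -4.65 ± 0.14 SE, limma adjusted p = 2.48e-07). The mean of the downregulated clone lay under the added constant, so the size of this change is set in part by it. RGS1, which restrains chemokine receptor signalling in B cells, read 1972 and 1462.5 against 629.2 and 841.5 (-1.57 ± 0.08 SE, adjusted p = 4.01e-06). RGS13, its germinal centre relative, fell by 1.22 on the log2 scale, and GNG2, a gamma subunit, fell by 1.00. GNG10, called lower after normalisation, changed sign under another scaling.

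Of 40 genes of the migration machinery, which turns receptor signals into actin remodelling and integrin adhesion, 38 were tested, 13 rose and 11 fell (13 and 3 as deposited). Over all tested genes, 20.6% rose and 20.6% fell (20.3% and 5.74% as deposited). The median log2 change of the list was -0.03. RHOH, a GTPase of blood cells that lacks GTP hydrolysis, read 3549.5 and 3171.9 in the control clone, against 1196.2 and 1414.6 in the downregulated clone (normalised log2 change -1.72 ± 0.05 SE, limma adjusted p = 3.71e-07). ITGB2, the beta chain of the leukocyte integrins, read 205.9 and 226 against 44.7 and 54.4 (-2.05 ± 0.17 SE, adjusted p = 3.41e-05). Among the genes that rose were PIK3CD, the leukocyte lipid kinase subunit (log2 change 1.08), ELMO1, an adaptor of RAC activation (0.99), and RAC1, a GTPase of cell protrusion (0.42). RHOA and RAP1B, called lower after normalisation, changed sign under another scaling.

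Of 13 transcription factors known to act on these receptor genes, all were tested, 4 rose and 5 fell (4 and 2 as deposited), with a median log2 change of -0.13. Among all tested genes 20.6% rose and 20.6% fell (20.3% and 5.74% as deposited). BCL6, the germinal centre repressor, read 3602.7 and 2607.2 in the control clone, against 1070.9 and 1170.8 in the downregulated clone (normalised log2 change -1.80 ± 0.07 SE). FOXO1, which promotes CXCR4 expression in the dark zone, read 363.7 and 289.4 against 169.9 and 167.2 (-1.19 ± 0.11 SE, limma adjusted p = 5.82e-05). NFKB1, a subunit of NF-kB, rose by 0.70 on the log2 scale. REL, another subunit, fell by 0.56, a call that was lost as deposited (-0.21, adjusted p = 0.553) and after median centring (-0.17, adjusted p = 0.307). POU2AF1 and HIF1A, called lower after normalisation, changed sign under another scaling.

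**Figure D3:**
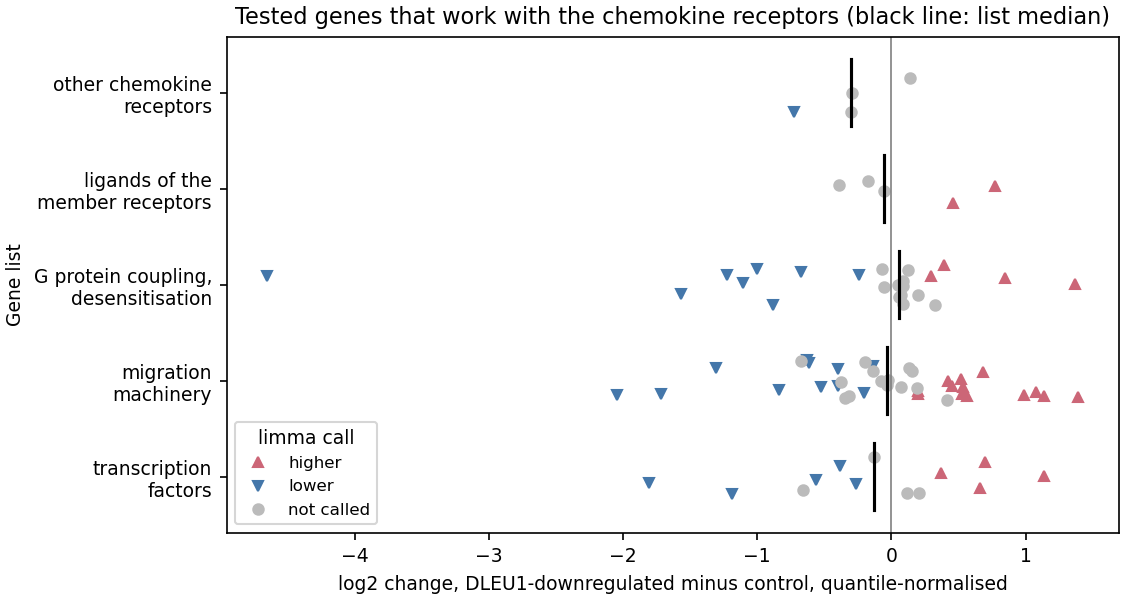
Normalised log2 change (DLEU1-downregulated minus control) of every tested gene in the 5 lists, with triangles for genes that passed the limma threshold in either direction, grey circles for the rest and a black line at the list median. The list medians lie between -0.30 and 0.06, and GNB4, at -4.65, stands far to the left.

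Neighbouring genes on the chromosome were examined after the members' values were known. Of the 10 tested genes nearest to CXCR4, 5 on each side in RefSeq order, 3 rose and 7 did not pass, and their log2 changes ran from -0.46 to 0.43. The 10 neighbours of CXCR5 had 2 rises and 2 falls and ran from -0.68 to 0.37, so both genes had a larger fall than any of these neighbours. Around CCR7, 2 rose and 2 fell, with changes from -0.46 to 0.77 and a median of 0.37, which is above the change of CCR7 itself. For comparison, 20.6% of all tested genes rose and 20.6% fell. The median log2 change of the other tested genes was -0.03 on chromosome 2, -0.09 on chromosome 11 and 0.05 on chromosome 17.

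**Figure D4:**
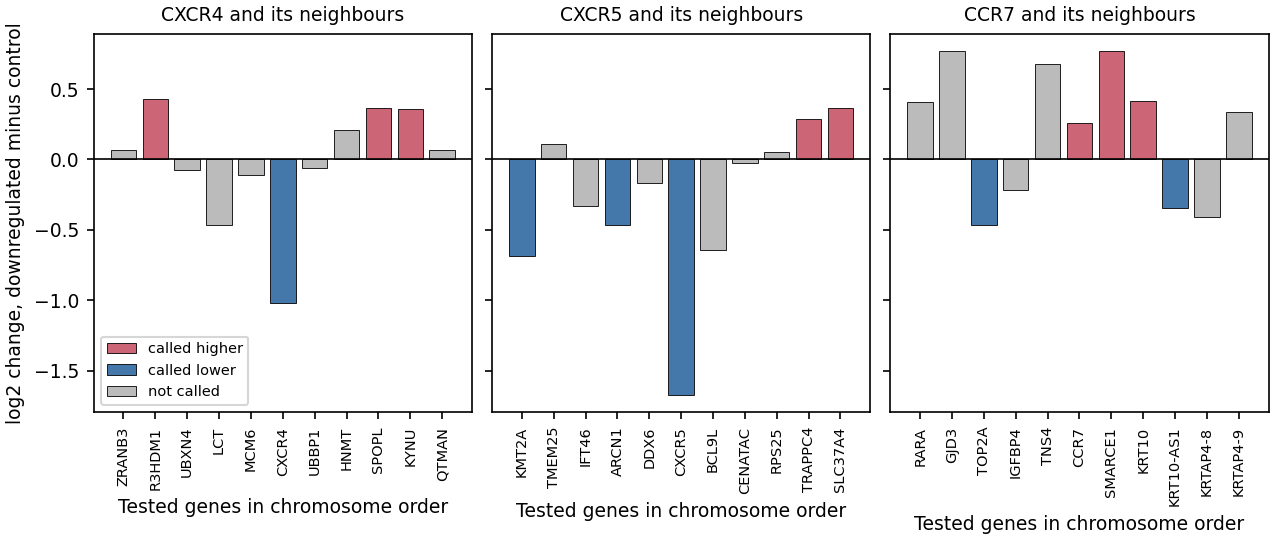
Normalised log2 change (DLEU1-downregulated minus control) of CXCR4, CXCR5 and CCR7 and of the 5 nearest tested genes on each side, in chromosome order and not to scale in distance, coloured by the limma call. CXCR4 and CXCR5 have the lowest bars of their panels, at -1.02 and -1.67, while CCR7 at 0.26 lies within the range of its neighbours.

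Genes whose values over the 4 arrays lay closest to those of CXCR4 and CCR7, the members with the smallest p in each direction, were found by the Euclidean distance of log2 values centred on their mean. With 4 arrays in 2 groups this mostly finds genes with a change of like size. Nearest to CXCR4 were ZNF395 (distance 0.032, log2 change -1.02), ELK3 (0.033, -1.05) and TAGAP (0.033, -0.99). TAGAP encodes a GTPase-activating protein of lymphocytes. Nearest to CCR7 were NTHL1, a DNA repair glycosylase (distance 0.023, log2 change 0.25), CALHM1 (0.027, 0.25) and CTNNAL1 (0.030, 0.24). CALHM1 averaged 12.8 on the control arrays after normalisation, under the added constant, and did not pass the test (limma adjusted p = 0.474).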

How the data were processed

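The authors deposited a table of linear signal intensity for 54613 probe sets and 62 control probe sets on 4 arrays, made with MAS5 per the submitters' processing notes. The sources used here name no version, scaling target or detection call. The deposited arrays had no common trimmed mean, so they were quantile-normalised without control probe sets, and log2(intensity + 16) was taken. The constant makes the log2 changes of dim genes smaller, whereas fold differences between normalised means were taken without it. Probe sets with a mean log2 value under the 40th percentile were left out (21845), and 32768 were tested with limma 3.58.1 in R 4.3.3 (lmFit, eBayes with an intensity trend, Benjamini-Hochberg, threshold 0.05), with the clone as the only term.

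Symbols came from the platform annotation: 41091 probe sets had 1 symbol, 1801 several and 11721 none. They were updated by gene identifier against RefSeq GRCh38.p14, which matched 41037. Apart from the receptors, a gene is its brightest probe set. The receptors and the lists were chosen with earlier results of these data known. Named genes were all receptor probe sets, DLEU1, up to 4 called genes with the smallest p per list and the 3 genes nearest in pattern to the leading receptors. Genes named for a change of sign, for their dimness or as neighbours, and ELMO1 and CXCL11, were added after their values were seen. The fit was first tested on simulated data. Alternatives covered scaling, added constant, dim filter, trend, replicate block, single arrays, _x_at probe sets and, for some results, the threshold and averaging over probe sets. Receptor proteins were not analysed here.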

Additional observations from a re-analysis of the deposited data

How the results depend on the processing

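The count of lowered receptor probe sets was 5 in the alternatives run, except 4 without _x_at probe sets, which removes a CXCR4 probe set. CXCR4, CXCR5 and DLEU1 kept direction and call throughout, and CCR6 never passed. CCR7 did not pass in the fit without a trend (0.26, adjusted p = 0.144), and ranged from 0.21 to 0.31 when single arrays were left out. In such fits a clone is left with 1 array, which is assumed to vary like the other clone. Over all probe sets 11073 passed, against 7293 as deposited, 7156 without a trend, 7158 at a threshold of 0.01 and 7010 to 10078 without 1 array. After median centring 10420 rose and 2482 fell, and as deposited 5620 rose and 1673 fell, against 5588 and 5485. Among other chemokine receptors 1 gene passed and was lower, against 0 as deposited, 2 without the dim filter (1 higher and 1 lower) and 1 after median centring, which was higher. Of the ligands 2 passed, all higher, against 3 after median centring, all higher, and 1 to 2 without single arrays. Same-numbered arrays did not deviate together (r = -0.01), but with 2 arrays per clone this cannot tell whether the numbers pair the samples. With the replicate number as a block 11185 probe sets passed, and 6 receptor probe sets, as without it. Dim readings limit what can be said of CCR6, CXCR3, CCR10 and CCRL2.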
